A study of Rattus norvegicus with 102 samples.

Results

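C1q-like proteins and cerebellins are small proteins that neurons release at synapses. Here 7 genes of this family were chosen by gene symbol, C1ql1, C1ql2, C1ql3, Cbln1, Cbln2, Cbln3 and Cbln4, and are called the members. They were taken out of 26284 genes listed for the Illumina platform and 26341 for the Ion Proton platform. RNA had been sequenced from 3 hippocampal subfields, CA1, CA3 and the dentate gyrus (DG), of 34 male Fisher 344 rats, with 1 library per subfield and rat in each table. The young group (10 rats) was aged 5 to 6 months. Aged rats, at 17 to 22 months, had been classed by a water maze as aged-unimpaired (AU, n = 12) or aged-impaired (AI, n = 12). The labels give no transgene or drug for any rat, CA2 and subiculum had not been isolated as pieces of their own, and all tests ran within a table, with the Illumina table first and the Ion Proton table of the same rats as a retest.

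Each protein of the family carries a globular C1q domain and acts as a bridge across the synaptic cleft. Cerebellins bind neurexins on the sending side and delta glutamate receptors on the receiving side, which is best known at the synapses of cerebellar granule cells on Purkinje cells. C1ql2 and C1ql3 are products of dentate granule cells that gather kainate receptors at the mossy fibre synapse in CA3, and C1ql1 and C1ql3 bind the adhesion receptor Adgrb3.

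Values are reads divided by a size factor per library, called normalised reads. Illumina libraries held 3246922 to 42750899 reads on genes (median 10745742), and Ion Proton libraries 4470473 to 21434160 (median 9738395). The labels give each rat a number, 18 rats below 9000 and 16 from 9000 up. The study tested rats at more than 1 site, and the labels name neither the site of a rat nor what sets the number series apart. Both series hold young, AU and AI rats. Markers of CA1 pyramidal, CA3 pyramidal and dentate granule cells were standardised on the log2 scale and averaged per list. By these scores 12 libraries were nearer to the mean of another subfield than to that of their label in both poly-A tables. They were 1 CA1, 7 CA3 and 4 DG libraries, from 1 young, 7 AU and 4 AI samples, and 11 of the 12 came from rats numbered from 9000 up. In rat R9781 the libraries labelled CA3 and DG were each nearest to the other, and their summed Illumina granule markers were 1148 and 277. In rat R9869 those labelled CA1 and DG were each nearest to the other too, but these sums were 1489 and 3066, in the order of the labels. For called members the values without these libraries or within each number series stand beside the result, whereas partner genes and organisers of other families are given over all libraries only. In bulk tissue, fewer cells of a type and less RNA per cell cannot be told apart.

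The sequences just before the starts of 3 members are shown because C1ql2 and C1ql3 were lowest in CA3 and Cbln4 was highest there. The windows hold the 250 bases before the start in RefSeq (GRCr8, which is not the build of the tables), at chr13:34023652-34023901 on the plus strand for C1ql2, chr17:81038245-81038494 on the minus strand for C1ql3 and chr3:181225601-181225850 on the minus strand for Cbln4. Capitals mark matches, on either strand, to the TATA box TATAAA, the GC box GGGCGG, the E-box CAGCTG, the E-box CAGATG, the CCAAT box or the cAMP response element TGACGTCA.
C1ql2: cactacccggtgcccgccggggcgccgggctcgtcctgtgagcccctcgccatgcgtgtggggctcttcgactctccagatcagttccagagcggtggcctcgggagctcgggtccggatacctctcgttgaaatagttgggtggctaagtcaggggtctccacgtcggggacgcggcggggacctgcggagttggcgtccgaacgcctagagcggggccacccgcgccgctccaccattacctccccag
C1ql3: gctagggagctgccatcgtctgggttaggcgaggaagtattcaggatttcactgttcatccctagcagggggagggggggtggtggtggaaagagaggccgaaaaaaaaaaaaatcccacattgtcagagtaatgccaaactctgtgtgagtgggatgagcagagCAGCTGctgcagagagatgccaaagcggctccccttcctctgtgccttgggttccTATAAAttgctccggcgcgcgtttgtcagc
Cbln4: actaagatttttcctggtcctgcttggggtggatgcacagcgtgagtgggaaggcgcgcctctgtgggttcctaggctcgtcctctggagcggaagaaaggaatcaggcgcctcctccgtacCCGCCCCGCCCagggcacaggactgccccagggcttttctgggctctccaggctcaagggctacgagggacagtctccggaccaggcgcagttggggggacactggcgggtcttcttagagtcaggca
The C1ql3 window held TATAAA 30 bases before the start, a motif found in 12.93% of 33469 rat windows of this length, and CAGCTG 85 bases before it, found in 11.97%. Cbln4 held 2 GC boxes on the reverse strand, 128 and 123 bases before the start and overlapping by 1 base, where 30.47% of windows held at least 1. C1ql2 held none of the searched motifs, which were present in 13.96% (CAGATG), 34.02% (CCAAT) and 1.587% (TGACGTCA) of all windows. Its window had 68.8% G and C, against 54.0% for C1ql3 and 63.2% for Cbln4.

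Subfield differences covered most of the 7 members. A gene was called when its adjusted p was under 0.05 in both poly-A tables in the same direction (limma). Of the 7 members, 6 passed the filter of a mean of at least 10 normalised reads, and Cbln3 did not. Between CA1 and CA3, 4 members were called (C1ql2, C1ql3, Cbln2 and Cbln4), where 14.4% of all genes tested were. For CA1 against DG, 3 members were called (C1ql1, C1ql2 and Cbln2), against 26.9% of all genes, and for CA3 against DG all 6 tested members were, against 28.5% of all genes. The median log2 difference of the 6 members was 0.50 for CA1 minus CA3, -0.14 for CA1 minus DG and -0.21 for CA3 minus DG.

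**Figure D1:**
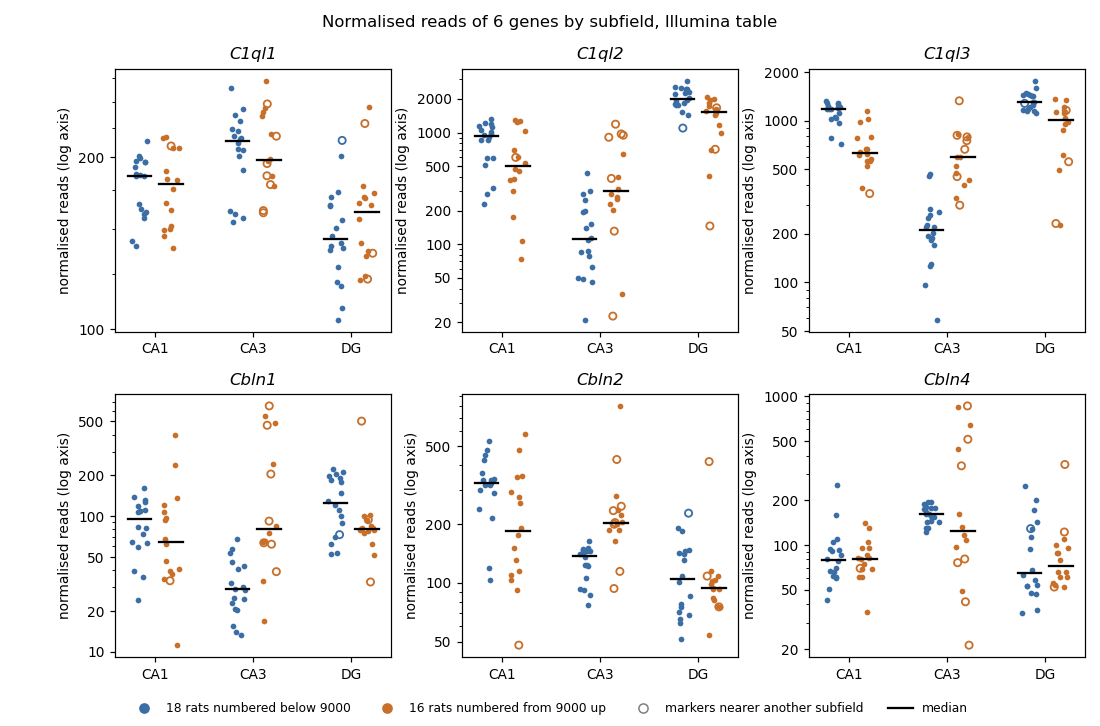
Normalised reads of the 6 tested members in the Illumina table (log axes), with 1 point per library, 34 libraries per subfield, split into rats numbered below 9000 and from 9000 up. Open circles are the 12 libraries whose markers were nearer to another subfield, and bars are medians. C1ql2 and C1ql3 sit lowest in CA3, and the gap between CA1 and CA3 is wider in rats numbered below 9000.

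C1ql2, which is released by granule cells at mossy fibre terminals, had the widest subfield range of the members. In the Illumina table its 34 DG libraries had 146 to 2927 normalised reads (median 1784). CA1 libraries had 72.9 to 1320 (median 652), and CA3 libraries 21.0 to 1189 (median 201). All subfields overlapped, and DG was above CA3 in 31 of 34 rats and above CA1 in 29 of 34. CA3 was lower than DG by a log2 difference of -3.11 ± 0.28 (SE, adjusted p = 4.0e-17) and CA1 was lower than DG by -1.36 ± 0.28 (adjusted p = 2.1e-05). CA1 was higher than CA3 by 1.75 ± 0.28 (adjusted p = 2.2e-07). The order DG, CA1, CA3 returned in the Ion Proton table, with medians of 1069, 417 and 124 and differences of -3.01, -1.23 and 1.78 in the same order of contrasts. The lowest DG value, 146, and a high CA3 value, 947, came from rat R9781, whose labels and markers disagreed. Without the 12 libraries the Illumina differences were -3.56 for CA3 minus DG, -1.52 for CA1 minus DG and 2.03 for CA1 minus CA3. Rats numbered below 9000 gave -4.14, -1.40 and 2.73. In rats numbered from 9000 up the values were -1.95, -1.31 and 0.64, and of these only CA3 against DG was called. Whether the series differed was not tested.

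Levels of C1ql2 moved with markers of granule cells within every subfield. The 7 markers of that list (Prox1, Dsp, Tdo2, Lct, Plk5, Lnp1 and Nhlh1) were summed per library. In the Illumina CA3 libraries Tdo2 and Lct had medians of 0 and 2.18 and Prox1 had 182, where the sum had 327. On the log2 scale C1ql2 had a Pearson r of 0.95 with the sum over the 34 CA1 libraries, 0.80 over CA3 and 0.97 over DG (0.88, 0.77 and 0.80 by Ion Proton). These are descriptions over libraries that share rats, depth and dissection, and both values come from the same reads. C1ql2 amounted to a median of 0.57 times the marker sum in CA1 (0.26 to 0.78 over libraries), 0.52 in CA3 (0.092 to 1.04) and 0.59 in DG (0.48 to 0.84). Ion Proton values spread wider, with medians of 0.44 (0.17 to 1.52), 0.45 (0.027 to 0.91) and 0.44 (0.21 to 1.32). The subfield medians of C1ql2 itself spanned from 201 to 1784 in the Illumina table, and the medians of the ratio from 0.52 to 0.59. The part of granule cell RNA in the C1ql2 levels of CA1 and CA3 was not tested.

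**Figure D2:**
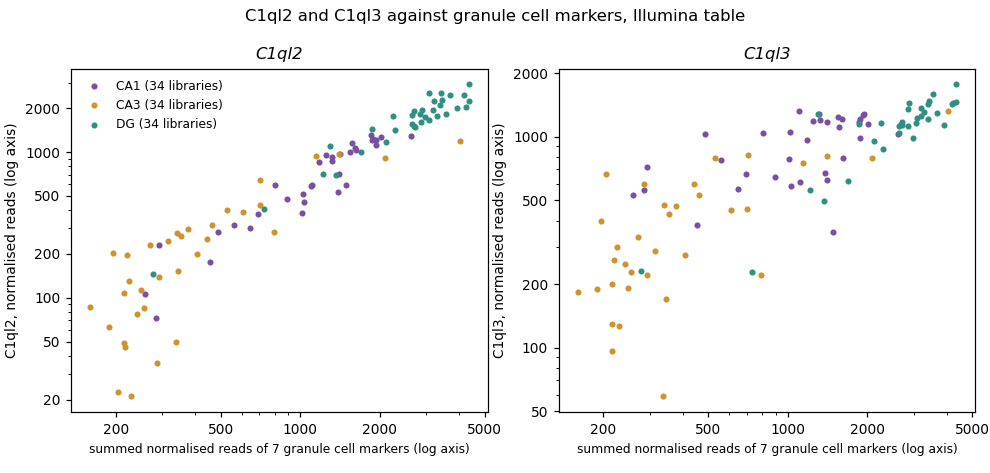
C1ql2 (left) and C1ql3 (right) against the sum of 7 granule cell markers, in normalised reads on log axes, with 1 point per Illumina library and 34 libraries per subfield. For C1ql2 the points of CA1, CA3 and DG lie along a single band, while the ratio of C1ql3 to the sum has higher medians in CA1 (0.79) and CA3 (0.92) than in DG (0.40).

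For C1ql3, a partner of C1ql2 in granule cells that also binds Adgrb3, CA1 and DG had closer levels. DG libraries had 228 to 1774 normalised reads (median 1172), CA1 libraries 355 to 1319 (median 1005) and CA3 libraries 58.8 to 1329 (median 318). CA1 and DG overlapped over most of their range, and CA3 was mostly below both. CA1 was higher than CA3 by 1.38 ± 0.18 (adjusted p = 1.0e-09) and CA3 was lower than DG by -1.66 ± 0.18 (adjusted p = 4.0e-13). CA1 minus DG was -0.28 ± 0.18 (adjusted p = 0.19) in the Illumina table and 0.07 by Ion Proton, and was not called. In CA1 by Ion Proton 4 libraries had C1ql3 at 2742 to 6187, which the same samples did not show in the other tables. Its ratio to the granule marker sum had medians of 0.79, 0.92 and 0.40 in CA1, CA3 and DG (0.63, 0.61 and 0.32 by Ion Proton). Across the 34 DG libraries C1ql2 and C1ql3 had an r of 0.93, and across the CA1 libraries 0.68. Within the CA1 libraries C1ql3 had an r of -0.84 with the summed oligodendrocyte markers, and in the Ion Proton table -0.37. Rats numbered below 9000 had CA1 values of 718 to 1319 and CA3 values of 58.8 to 467, which did not overlap, and CA1 was higher in 18 of 18 rats with a difference of 2.47. In rats from 9000 up CA1 had 355 to 1147 and CA3 301 to 1329, with a difference of 0.15 that was not called, and CA3 minus DG was -0.45, also not called. Without the 12 libraries the differences were 1.68 and -2.01, both called.

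C1ql1 is made by climbing fibre neurons in the hindbrain and by oligodendrocyte precursors, and it binds Adgrb3. CA3 libraries had 154 to 273 normalised reads (median 209), CA1 libraries 139 to 217 (median 185) and DG libraries 104 to 245 (median 148), with wide overlap. CA3 was higher than DG by 0.43 ± 0.06 (adjusted p = 5.1e-10), in 29 of 34 rats. This difference was called within rats from 9000 up (0.38) and not within rats below 9000 (0.48). CA1 was higher than DG by 0.23 ± 0.06 (adjusted p = 5.8e-04), in 26 of 34 rats, and this call was lost without any of rats R2233, R9867, R9869 or R9870, with differences of 0.21 to 0.24. CA1 minus CA3 was -0.21 ± 0.06 (adjusted p = 0.0029) but did not pass in the Ion Proton table (adjusted p = 0.31). The sum of 7 markers of oligodendrocyte precursors had an r with C1ql1 of 0.18 in CA1, 0.18 in CA3 and 0.55 in DG. Its r with the granule marker sum over DG libraries was -0.73, and -0.30 in the Ion Proton table. CA1 minus DG for C1ql1 was not called in the WT table (0.07), whose library type is not stated, after quantile normalisation (0.17) or within either number series (0.28 and 0.16).

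Cbln2 was highest in CA1. Its protein binds neurexins and the delta receptor Grid1. CA1 libraries had 48.0 to 577 normalised reads (median 295), CA3 libraries 76.7 to 805 (median 148) and DG libraries 51.3 to 418 (median 96.5). CA1 was above DG in 32 of 34 rats and above CA3 in 27 of 34, with overlap between all subfields. CA1 was higher than DG by 1.24 ± 0.17 (adjusted p = 1.7e-09) and higher than CA3 by 0.57 ± 0.17 (adjusted p = 0.0056). CA3 was higher than DG by 0.67 ± 0.17 (adjusted p = 5.5e-04). The CA1 and CA3 difference was called in rats below 9000 (1.26, with CA1 higher in 18 of 18 rats) and not in rats from 9000 up (-0.21, with CA1 higher in 9 of 16 rats). The negative value in rats from 9000 up turned on rat R9869, with 48.0 in the library labelled CA1, whose markers were nearest to DG, and 805 in CA3. Without this rat the mean difference was 0.04 (0.00 by Ion Proton). CA3 and DG went the other way round, with 0.24 and no call below 9000 and 1.15 with a call from 9000 up. In that CA3 library of R9869, an AU rat, Cbln4 had 49.4 and Cbln1 74.8. Cbln2 had an r of 0.83 with Slc17a6, which encodes a vesicular glutamate transporter abundant in thalamus, over the CA1 libraries and also over the DG libraries (0.77 and 0.74 in the Ion Proton table), and 0.32 over the CA3 libraries.

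Cbln4, which binds neurexins and the netrin receptors Dcc and Neo1, was highest in CA3. CA3 libraries had 21.2 to 863 normalised reads (median 160), CA1 libraries 35.6 to 252 (median 80.6) and DG libraries 35.1 to 348 (median 66.6). CA3 was above CA1 in 29 of 34 rats and above DG in 27 of 34. CA1 was lower than CA3 by -0.99 ± 0.20 (adjusted p = 3.0e-05), and CA3 was higher than DG by 0.98 ± 0.20 (adjusted p = 1.4e-05). CA1 minus DG was -0.00 ± 0.20 and was not called. This gene was called in CA1 against CA3 in both number series, with differences of -0.95 below 9000 and -1.03 from 9000 up. CA3 against DG gave 0.97 and 1.00 in the 2 series and was called in both. The spread in CA3 differed between series, with 123 to 194 in the 18 rats below 9000 and 21.2 to 863 in the 16 rats above.

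For Cbln1, the founding cerebellin, the subfields overlapped throughout. DG libraries had 32.8 to 503 normalised reads (median 91.3), CA1 libraries 11.2 to 397 (median 82.5) and CA3 libraries 13.4 to 651 (median 44.5). CA3 was lower than DG by -0.86 ± 0.27 (adjusted p = 0.0051, Ion Proton adjusted p = 0.033), in 26 of 34 rats. The call was lost without any of 10 rats taken in turn (R1922, R1923, R1931, R2182, R2184, R2189, R2221, R2230, R2235 or R9865), with differences of -0.85 to -0.77, and also with no filter on low values (-0.86), without the 7 rats sequenced most deeply (-0.59), with edgeR (-0.16) and with DESeq2 (-0.11). CA1 minus CA3 was 0.42 ± 0.27 (adjusted p = 0.23) and CA1 minus DG -0.43 ± 0.27 (adjusted p = 0.17), neither called. Within rats below 9000 CA3 was lower than DG in 18 of 18 rats (-2.0) and lower than CA1 (CA1 minus CA3 1.45), both called. Rats from 9000 up gave 0.43 and -0.73 for the same contrasts, neither called.

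**Figure D3:**
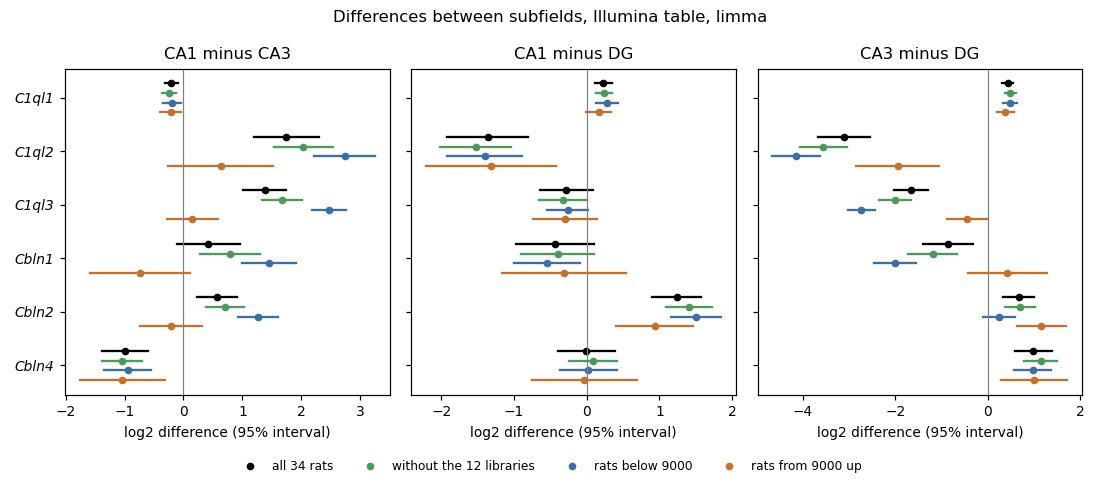
Log2 differences between subfields for the 6 tested members in the Illumina table, from limma, with 95% intervals, over all 34 rats, without the 12 libraries nearer to another subfield, and within each number series. Cbln4 lies left of 0 in CA1 minus CA3 in both series, whereas C1ql3, Cbln1 and Cbln2 in the CA1 minus CA3 panel lie to the right of 0 below 9000 and have lower estimates (0.15, -0.73 and -0.21) from 9000 up.

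Among the CA3 libraries, 6 had high levels of both Cbln1 and Cbln4. In these the 2 genes had 205 to 651 and 341 to 863 normalised reads in the Illumina table, and in the other 28 CA3 libraries 13.4 to 92.1 and 21.2 to 194. The cut of 200 for both genes was chosen after the values were seen, so no test was made. The same 6 libraries stood apart in the Ion Proton table, with 251 to 598 for Cbln1 against 3.07 to 99.8 and 273 to 553 for Cbln4 against 31.3 to 144. They did so in the WT table too, with 131 to 378 against 4.91 to 52.2 and 266 to 650 against 30.6 to 100.3. All 6 came from aged rats numbered from 9000 up, where 11 aged rats were present. They were the AU rats R9860 (651 and 863), R9862 (553 and 847) and R9867 (205 and 341) and the AI rats R9870 (469 and 515), R9872 (243 and 443) and R9874 (489 and 643), with Cbln1 first. Of the 6, 3 were nearer to another subfield by markers. Their summed CA3 pyramidal markers had a median of 11789 against 16482 in the other CA3 libraries, CA1 pyramidal markers 8605 against 5098 and subiculum and entorhinal markers 4156 against 3063. Thalamus and habenula markers had 837 against 559.7, cerebellar granule markers 106 against 79.6 and choroid plexus markers 872 against 208. Astrocyte markers had 51129.5 against 40991, oligodendrocyte markers 108116 against 155487, their precursors 6195 against 6186, interneurons 7731 against 7673 and dentate granule cells 347 against 304. In the Illumina table the range in the 6 lay within that of the other 28 for each list except cerebellar granule cells. For those the 6 reached 269 and the others 200, and by Ion Proton the highest sum in CA3 was 259.7, in a young rat. The part of these differences in the levels of Cbln1 and Cbln4 was not tested.

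**Figure D4:**
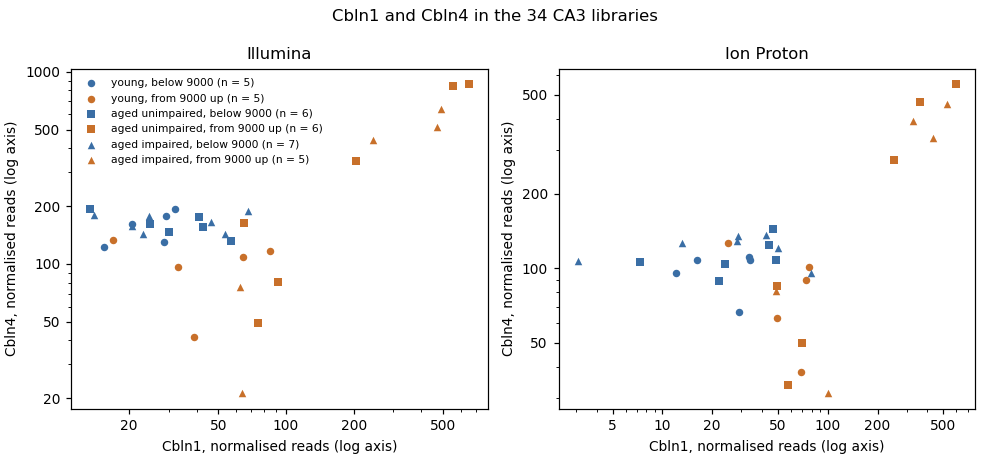
Cbln1 against Cbln4 in the 34 CA3 libraries, in normalised reads on log axes, for the Illumina (left) and Ion Proton (right) tables, with shapes for young, AU and AI rats and colours for the number series. The same 6 aged rats numbered from 9000 up lie at the upper right in both panels, away from the other 28 libraries.

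Cbln3 is a cerebellar granule cell protein that depends on Cbln1 for its release. It stayed near the detection floor. Its median was 1.44 normalised reads over CA1 libraries, 1.77 over CA3 and 2.45 over DG. At most 3 reads were held by 29, 29 and 25 of the 34 libraries of these subfields, and 6, 5 and 6 libraries had 0. An exception was the CA3 library of AI rat R9870, with 24.4 in the Illumina, 28.3 in the Ion Proton and 31.0 in the WT table, where the next highest CA3 value in the Illumina table was 4.97. In the Ion Proton table a rat numbered below 9000 was high in CA3 too, with a CA1 minus CA3 log2 difference of -4.03. The summed markers of cerebellar granule cells were 269 in that library in the Illumina table, above the 63.7 to 200 of the 28 CA3 libraries outside the set of 6. By Ion Proton the AI libraries of CA3 reached 254 and a young CA3 library 259.7. Their part in its Cbln3 value was not tested.

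The receptors of the family were measured beside it. From a list of 10 partner genes, found as 11 identifiers, 3 were called between CA1 and CA3 (1 higher and 2 lower in CA1), 5 between CA1 and DG (2 higher and 3 lower in CA1) and 4 between CA3 and DG (3 higher and 1 lower in CA3), where 14.4%, 26.9% and 28.5% of all genes were. Their median log2 differences were -0.16, -0.13 and -0.04. Grik4, a kainate receptor subunit, had medians of 724 in CA1, 1985 in CA3 and 1850 in DG. CA1 was lower than CA3 by -0.98 ± 0.13 and lower than DG by -1.23 ± 0.13. Its companion subunit Grik2 was lower in CA1 and in CA3 than in DG (-0.56 ± 0.05 and -0.40 ± 0.05). Dcc was lower in CA1 than in CA3 (-0.53 ± 0.09) and DG (-0.80 ± 0.09), and Neo1 was higher in CA3 than in DG by 0.18 ± 0.04. A smaller difference was called for Adgrb3, listed as Bai3, with CA1 higher than CA3 by 0.17 and than DG by 0.13.

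Organisers of other families were called at 12 of 28 genes for CA1 with CA3, 15 for CA1 with DG and 15 for CA3 with DG, beside 14.4%, 26.9% and 28.5% of all genes. In CA1 against CA3, 7 were higher and 5 lower, in CA1 against DG 6 and 9, and in CA3 against DG 5 and 10. The 3 with the largest changes were Lphn2, a latrophilin receptor, with CA1 higher than DG by 2.71 ± 0.22, Lrrtm4, a postsynaptic neurexin ligand, with CA3 lower than DG by -1.18 ± 0.11, and Nptx1, a neuronal pentraxin, with CA1 lower than DG by -1.20 ± 0.13.

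The genes most like each member across all libraries of the 3 subfields were ranked by Pearson r on the log2 scale, as a mean over both poly-A tables and among 13907 genes. These r describe libraries that share rats, depth and dissection. C1ql2 was followed most closely by Tiam1 (0.95), Pdyn (0.92) and Dsp (0.91), and C1ql3 by Fam124a (0.88), Cdh13 (0.86) and Usp13 (0.86). Cbln2 was nearest to Tox (0.86), Rgs4 (0.86) and Nxph3 (0.86). Lower values were found for Cbln1, with Zdhhc22 (0.77), Cckbr (0.74) and Doc2a (0.73), and for C1ql1, with Samd14 (0.73), Grin2d (0.70) and Ctnnbip1 (0.69). Cbln4 had no gene above 0.61, with Camk1g (0.61), Dusp26 (0.58) and Nnat (0.58) at the top.

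The age comparison set the 24 aged rats against the 10 young ones in each subfield. A gene was called when its unadjusted p was under 0.01 in the Illumina table and the Ion Proton table gave the same sign with a one-sided p under 0.05. By this rule in limma 0 members were called in CA1, CA3 or DG, where 0.851%, 0.402% and 1.09% of all genes were. At an unadjusted p under 0.05 in the Illumina table there were 0 members in CA1 and DG and 1 in CA3, where for CA1, CA3 and DG 6.15%, 3.31% and 5.20% of all genes passed. By the same rule edgeR called 0, 1 and 0 members, beside 156, 157 and 160 of the 13868, 13942 and 13728 genes tested. DESeq2 called 0, 2 and 0 members, beside 176, 100 and 178 of these genes. Members other than Cbln1 in CA3 had log2 differences of aged minus young between -0.16 and 0.61 over the subfields. In DG, C1ql2 had 406 to 2533 normalised reads in young rats (median 1692) and 146 to 2927 in aged rats (median 1810), with a difference of 0.04 and a 95% interval of -0.57 to 0.66. For C1ql1 in CA1 the interval was -0.20 to 0.10, the narrowest among the members there.

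Cbln1 in CA3 was the member with the largest age difference. Young rats had 15.5 to 85.1 normalised reads (median 30.6), and aged rats 13.4 to 651 (median 59.6). The ranges overlapped, and 17 of 24 aged libraries lay above the young median. The difference was 1.13 ± 0.52 on the log2 scale (limma, p = 0.038, adjusted p = 1.00) with an interval of 0.07 to 2.19, and 0.80 by Ion Proton (p = 0.18). All 6 CA3 libraries described above are aged. Within rats below 9000, which hold none of the 6, the difference was 0.35, and within rats from 9000 up it was 2.11 and was called. Taking the number series as a covariate (1.21) also gave a call, as did edgeR (2.00) and DESeq2 (1.98) on the recovered reads, and DESeq2 called Cbln4 in CA3 as well (1.00). Without the 12 libraries nearer to another subfield the difference was 0.75, with no call. Cbln4 in CA3 had 41.6 to 194 in young rats (median 127) and 21.2 to 863 in aged rats (median 164), a difference of 0.61 with an interval of -0.18 to 1.398.

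Whether the age difference varied between subfields was tested with interaction terms, and 0 members were called for any pair of subfields, as was true of 0% of all genes tested. At an unadjusted p under 0.05 in the Illumina table there was 1 member, Cbln1 in CA1 against CA3 (-1.18, interval -2.34 to -0.02, adjusted p = 1.00), where 1.93%, 0.353% and 1.06% of all genes passed in the 3 pairs. edgeR called 0 members as well, beside 11 of the 13907 genes tested in CA1 against CA3 and 0 genes in each remaining pair. DESeq2 was not run for this contrast.

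Cognition was compared within the aged rats as AI against AU, 12 rats each, by the same rule as age. In CA1 1 member was called, Cbln1, beside 0.635% of all genes, and at an unadjusted p under 0.05 there were 2 by Illumina, beside 5.71%. AU rats had 24.2 to 160 normalised reads of Cbln1 in CA1 (median 43.8), AI rats 39.5 to 397 (median 110) and young rats 11.2 to 238 (median 95.1). The groups overlapped, and 11 of 12 AI libraries lay above the AU median. AI was higher than AU by 1.02 ± 0.30 on the log2 scale (limma, p = 0.0023, adjusted p = 0.56), and in the Ion Proton table by 0.98 (p = 0.0042), again with 11 of 12 AI libraries above the AU median. In the Illumina table the adjusted p ranged from 0.14 to 0.95 when each rat was left out and from 0.23 to 1.00 over the other alternatives. The lowest value when a rat was left out was 0.85, without rat R9870, whose CA1 library had the 397. Within rats below 9000 the difference was 0.55 and not called, and within rats from 9000 up it was 1.55 and called. Without the 12 libraries nearer to another subfield it was 0.96 and called. In that series the 6 AU libraries had 33.4 to 67.7 and the 5 AI libraries 62.0, 94.2, 96.6, 136 and 397. Without the 7 rats sequenced most deeply it was 0.98 and the call was lost.

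Other values moved beside Cbln1 in CA1. Summed thalamus and habenula markers had a median of 904 in AU (684 to 1208) and 1098 in AI (649.7 to 4178), and by Ion Proton the highest library of these groups had 1052 and 3675. Median summed markers in AU and AI were 3526 and 3754 for subiculum and entorhinal cortex and 1259 and 1366 for granule cells, and Slc17a6 had 315 and 456. Cerebellar granule markers had 69.6 and 85.6, CA1 pyramidal markers 16525 and 13952, and oligodendrocyte markers 139343 and 125550. The ranges of AU and AI overlapped for each of these. The part of these in the Cbln1 difference was not tested. Cbln2 in CA1 had 48.0 to 365 in AU (median 227) and 104 to 577 in AI rats (median 343), with 10 of 12 AI libraries above the AU median. The difference was 0.69 ± 0.31 (limma, p = 0.036, adjusted p = 0.85) and 0.53 by Ion Proton (p = 0.13), and it was not called unless rat R9872 was left out (0.83).

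**Figure D5:**
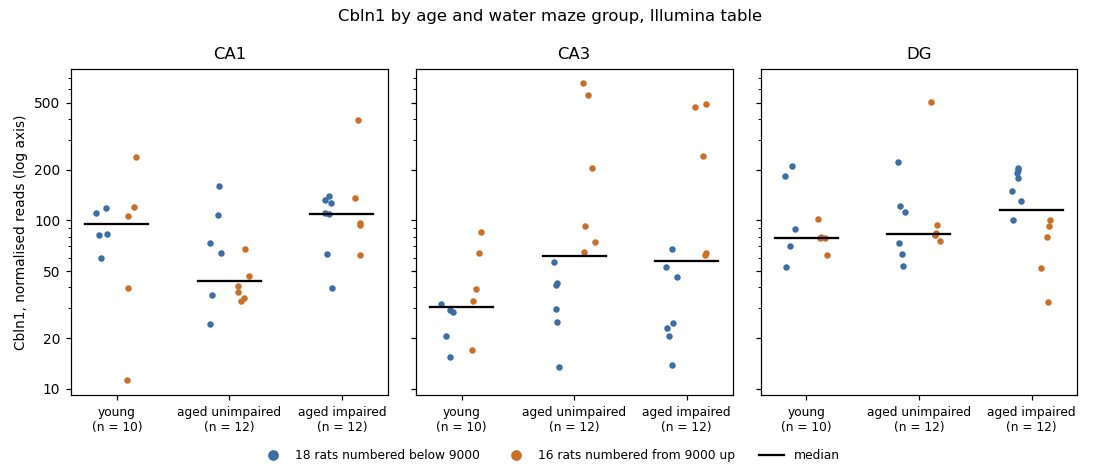
Cbln1 in normalised reads (log axis) in the Illumina table by age and water maze group in CA1, CA3 and DG, with 1 point per library, colours for the number series and bars for medians. In CA1 the AI median (110) lies above the AU median (43.8) and near the young median (95.1), and in CA3 the highest values belong to aged rats numbered from 9000 up.

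In CA3 and DG 0 members were called for cognition in limma, beside 0.0216% and 0.124% of all genes, and 0 had an unadjusted p under 0.05, beside 1.4% and 3.85%. edgeR and DESeq2 also called 0 in both, beside 4 and 28 genes by edgeR and 7 and 33 by DESeq2, of 13906 and 13713 tested. Cbln1 was -0.20 in CA3 (interval -1.52 to 1.11) and 0.10 in DG (-0.56 to 0.76). Interaction terms, added after the data were seen, called 0 members for any pair of subfields (0% of all genes), with 1, 0 and 0 members at an unadjusted p under 0.05 beside 4.56%, 3.48% and 1.84% of all genes. The difference between the CA1 and CA3 effects of cognition on Cbln1 was 1.22 (interval -0.11 to 2.55), and on Cbln2 0.98 (0.17 to 1.79, limma p = 0.019, adjusted p = 0.96, and 0.90 by Ion Proton, p = 0.046). Of the partner genes 0 were called for age or cognition in any subfield (limma), with 2, 0 and 1 at an unadjusted p under 0.05 for age and 0, 0 and 1 for cognition in CA1, CA3 and DG. Among the 28 other organisers 1 was called, beside 0.635% of all genes, and at an unadjusted p under 0.05 there were 1, 0 and 1 for age and 3, 3 and 1 for cognition in these subfields. The called gene was the netrin G protein gene Ntng1 for cognition in CA1, with AI higher than AU by 0.57 ± 0.16 and by 0.70 in the Ion Proton table.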

How the data were processed

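Libraries were mapped by subfield and rat number in the labels. Per the study's methods, the authors trimmed Illumina reads with cutadapt (version 1.8.3), aligned them to rn5 with STAR (version 2.5) and counted them with featureCounts (version 1.4.4), and aligned Ion Proton reads to rn5 with TopHat2. The processing of the WT table is not given in the sources used here. Labels and methods name different kits for the Illumina libraries, so counting by strand is unknown. The deposited values are a normalised signal, read counts divided by size factors that the authors made with DESeq2. They returned whole reads for 100.0% of values above 0, and the sum of these reads per library is its depth. The tolerance was 0.001 of the count, so high counts pass whatever their value. A count of at most 3 reads was taken as the detection floor, which covers counting error only.

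Genes with a mean of at least 10 were fitted in limma (version 3.58.1, R 4.3.3, variance trend) on log2(value + 1), which understates changes of low genes, with Benjamini-Hochberg adjustment over all genes tested. Standard errors, intervals and p-values come from these fits unless the Ion Proton table is named. Both poly-A tables hold the same rats, so the retest bears on technical error. The 3 libraries of a rat share an animal. With the rat as a block the consensus correlation was 0.149 (Illumina) and 0.0891 (Ion Proton), and the main fit had no block. The fits were tested on simulated data.

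Members and lists were chosen with earlier results of these data known. Named genes were all members, partner genes called in a comparison (some of these are counted but not reported here by name), the 3 organisers of other families with the largest mean change and any called for age or cognition, and the 3 genes most like each member. Promoter windows came from RefSeq (4 of 7 members had an entry, and the one of Cbln2 was not used). Alternatives were a pseudocount of 0.1, no filter, quantile normalisation, edgeR (version 4.0.16) and DESeq2 (version 1.42.0) on recovered reads, the number series as covariate or alone, without the 12 libraries or the 7 deep rats, the WT table, the rat as a block and leaving out each rat. Leaving out each rat within a number series was added after seeing the data.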

Additional observations from a re-analysis of the deposited data

Results flagged for a closer look

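There were 21 young groups of 10 libraries (7 members in 3 subfields, Illumina table). Of these, 3 had a highest or lowest library far from the others for the range of its group. For independent groups of normal values the cut used gives about 1 in 20. These groups share the same 10 rats and hold values on a linear scale, so that share need not apply. C1ql3 in DG had a lowest library of 228 normalised reads (rat R9881), with the next at 959. That library was also the lowest young DG library for C1ql2 (406, with the next at 1177). Its granule marker sum was 731, against a median of 2875 over all DG libraries. Cbln1 in CA1 had a highest library of 238 (rat R9876), with the next at 121, and Cbln2 in CA3 a highest of 428 (rat R9879), with the next at 236. The CA3 library of rat R9879 is among the 12 nearer to another subfield.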

How the results depend on the processing

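Counts of members called were taken under 12 alternatives for each subfield pair and 11 for each age and cognition comparison. They left the 1.5-fold range of the count given above in 8 cases. CA1 against CA3 and CA1 against DG each had 1 member in rats numbered from 9000 up. Cognition in CA1 had 0 members in rats below 9000 and 0 without the deeply sequenced rats. Age in CA3 had 1 with the number series as covariate, 1 in rats from 9000 up, 1 with edgeR and 2 with DESeq2. Leaving out each rat in turn gave 1 to 2 members for cognition in CA1. With the replicate block on the rat 4, 3 and 6 members were called in the 3 subfield pairs, the same numbers as without it (all genes 2242, 4086 and 4294 against 1996, 3739 and 3957), and it changed no member's call. Among called contrasts, the sign changed in rats from 9000 up, for Cbln2 in CA1 minus CA3 (-0.21, or 0.04 without R9869, a check chosen after seeing the data) and for Cbln1 in CA3 minus DG (0.43), and their cause was not tested. Counts over all genes moved by over 1.5 times for CA1 against CA3 (551 from 9000 up, 3023 below), CA1 against DG (3739, with 15.7% of genes tested below 9000), age in CA1 (118 to 187 with the covariate), age in CA3 (56, with 35 to 157), age in DG (150, with 88 to 93), cognition in CA1 (88, with 32 and 44), cognition in CA3 (3, with 0 to 15) and cognition in DG (17, with 5 to 111). Cbln3 had at most 3 reads in most libraries, and the part of depth in this was not tested.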

Other observations

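C1ql3 had 4 CA1 libraries in the Ion Proton table far above the rest, with 6187 (AU rat R2232), 4252 (AU rat R2230), 3448 (AI rat R9874) and 2742 normalised reads (AI rat R2233), where the next highest CA1 library had 955. The Illumina libraries of the same pieces had 1263, 777, 791 and 1242, within the range of the other CA1 libraries, and the WT table had 914, 627, 590 and 850. In rat R2232 C1ql1 was also high in the Ion Proton table alone (817 against 166 in the Illumina table), while C1ql2 had 1612 and 1205.

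The DG library of AU rat R9865, one of the 12 nearer to another subfield, had the highest DG values of 3 cerebellins in the Illumina table, with 503 for Cbln1, 418 for Cbln2 and 348 for Cbln4, and C1ql2 at 708 against a DG median of 1784. Over all DG libraries Cbln2 and Cbln4 had an r of 0.86 (0.67 in the Ion Proton table), whereas over the CA3 libraries it was -0.11 and -0.05. Cbln1 and Cbln4 had an r of 0.58 over the CA3 libraries (0.56 in the Ion Proton table).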
